A study of Mus musculus with 7 samples.

Results

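Open chromatin was examined around 9 genes for transcription factors and cofactors that are active in haematopoietic stem and progenitor cells: Meis1, Hlf, Mecom, Gata2, Tal1, Lmo2, Lyl1, Hhex and Bcl11a. Every peak that overlapped a gene body, or the 30 kb on either side of it, in any of 7 ATAC-seq peak lists from sorted mouse bone marrow B-cell progenitors was taken as a member, with gene positions from GENCODE M21 on mm10. This gave 1042 of the 647973 peaks in the 7 lists, which merged into 211 separate regions of 145247 in all. ATAC-seq marks accessible DNA, because the Tn5 enzyme inserts sequencing adapters where chromatin is open.

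There was 1 library per group, so no comparison could be tested, and every difference below is a difference between individual libraries. The WT libraries came from Ergfl/fl mice, which carry the loxP-flanked Erg allele without Cre, and were made from pre-proB, proB and preB cells. The Erg KO library came from pre-proB cells of Rag1CreT/+;Ergdelta/delta mice, in which Cre made under Rag1 control deletes Erg from the common lymphoid progenitor onward, so that stem cells keep the gene. The Erg Rescue libraries came from pre-proB, proB and preB cells of Rag1CreT/+;Ergdelta/delta;IgHVH10tar mice, which also lack Erg and carry a rearranged immunoglobulin heavy chain that is expressed from its endogenous locus. The study used adult mice of both sexes on a C57BL/6J background, and how many mice went into each sort is not stated in the sources used here. For all 3 Rescue libraries the title and the cell source field name different stages. The stages given here follow the titles. The library titled pre-proB, whose source field reads proB, had no peak at the promoters of the B-cell genes Pax5 and Vpreb1, and the one titled preB, whose source field reads pre-proB, had a peak at all 8 B-lineage promoters examined.

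Erg is an ETS-family factor that stem cells need and that acts with several of these 9 proteins on shared enhancers. Tal1, Lyl1, Gata2 and Lmo2 belong to 1 regulatory complex, in which Lmo2 bridges the basic helix-loop-helix proteins Tal1 and Lyl1 to GATA factors, while Meis1, Hlf and Mecom maintain stem cell identity. Hhex and Bcl11a are also required in early lymphoid progenitors, and Bcl11a is essential for B-cell development.

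The sequences of 9 elements are shown because the results below turn on them. Each is the stretch of 200 bases around the strongest summit, on the plus strand of mm10, and capitals mark a match to any of 7 short patterns that were searched on both strands. Each pattern is a single string of letters, so other forms of a factor's site stay in lower case. An element with no match may still hold such sites.
Mecom, intron 1, chr3:30413238-30413437, the highest-ranked peak near any of the 9 genes, with capitals at CAGCTG: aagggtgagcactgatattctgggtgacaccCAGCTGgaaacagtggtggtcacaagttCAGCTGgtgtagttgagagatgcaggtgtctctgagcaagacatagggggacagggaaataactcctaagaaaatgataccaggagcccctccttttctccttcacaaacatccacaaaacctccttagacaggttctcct
Meis1, intron 8, chr11:18925046-18925245, open in all 7 libraries, with capitals at TGACAG and AGATAAG: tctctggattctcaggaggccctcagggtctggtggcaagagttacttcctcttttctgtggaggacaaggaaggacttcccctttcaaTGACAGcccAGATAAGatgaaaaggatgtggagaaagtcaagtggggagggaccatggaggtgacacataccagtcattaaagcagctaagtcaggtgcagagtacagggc
Meis1, intron 6, chr11:18996848-18997047, the highest-ranked Meis1 element that some libraries lacked, with capitals at TGACAG on the minus strand: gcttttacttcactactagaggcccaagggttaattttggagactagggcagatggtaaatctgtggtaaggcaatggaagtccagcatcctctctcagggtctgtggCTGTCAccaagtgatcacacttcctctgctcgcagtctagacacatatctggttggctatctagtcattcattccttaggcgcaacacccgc
Gata2, intron 4, chr6:88203009-88203208, at the known intronic stem cell enhancer, with capitals at AGATAAG: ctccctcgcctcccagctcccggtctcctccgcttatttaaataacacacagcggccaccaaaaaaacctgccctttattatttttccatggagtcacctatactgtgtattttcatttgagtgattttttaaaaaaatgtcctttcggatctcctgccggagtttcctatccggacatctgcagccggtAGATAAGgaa
Lmo2, upstream, chr2:103935758-103935957, the element that ranked higher in the later stages, with no match: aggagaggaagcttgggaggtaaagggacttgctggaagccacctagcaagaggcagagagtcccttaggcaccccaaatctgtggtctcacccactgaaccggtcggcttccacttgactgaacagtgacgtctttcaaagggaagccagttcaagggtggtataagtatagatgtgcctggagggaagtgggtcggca
Lmo2, intron 1, chr2:103960126-103960325, an element with a peak in the pre-proB libraries alone, with no match: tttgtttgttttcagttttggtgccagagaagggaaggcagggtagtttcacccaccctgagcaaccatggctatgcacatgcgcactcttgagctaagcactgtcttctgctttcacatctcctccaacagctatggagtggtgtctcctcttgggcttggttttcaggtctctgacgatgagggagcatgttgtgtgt
Hlf, upstream, chr11:90419866-90420065, an element with a WT and Rescue difference in preB cells, with capitals at TGACAG: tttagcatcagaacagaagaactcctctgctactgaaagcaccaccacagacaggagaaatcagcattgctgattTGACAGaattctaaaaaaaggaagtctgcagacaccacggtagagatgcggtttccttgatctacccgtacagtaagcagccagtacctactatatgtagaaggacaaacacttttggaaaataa
Bcl11a, intron 1 running 71 bases into an exon, chr11:24085192-24085391, with a peak in the pre-proB libraries alone and capitals at TGTGGTT on the minus strand: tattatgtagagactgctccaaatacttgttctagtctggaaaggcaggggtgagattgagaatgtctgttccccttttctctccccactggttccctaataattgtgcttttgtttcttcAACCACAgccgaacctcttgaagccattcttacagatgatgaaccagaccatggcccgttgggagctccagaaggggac
Bcl11a, downstream, chr11:24185082-24185281, high in all 7 libraries, with capitals at TGTGGTT and, on the minus strand, at CAGGAAG: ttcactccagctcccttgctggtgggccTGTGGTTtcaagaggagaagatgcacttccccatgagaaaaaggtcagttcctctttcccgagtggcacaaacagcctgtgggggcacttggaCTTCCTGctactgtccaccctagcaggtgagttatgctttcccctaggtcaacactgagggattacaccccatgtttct

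The lists held 95662, 91668 and 76465 peaks for WT pre-proB, proB and preB cells, 102605 for Erg KO pre-proB cells, and 105649, 91471 and 84453 for Rescue pre-proB, proB and preB cells. Read totals are not given in the lists. The background pileup implied by each list, in reads, lay between 3.49 and 4.60, so weak peaks may be listed in some libraries and missed in others at about the same signal. The WT preB list was the shortest and had a background pileup of 3.56, against 3.85 for Rescue preB. Peak heights were compared by rank within each library's own list, written as the top percentage of that list, where a small percentage is a strong peak. Elements were chosen by rank among those that some library lacked, and elements with a peak in all 7 libraries, along with a few others, were picked after their values were seen.

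The 9 windows held 181, 132 and 100 peaks in WT pre-proB, proB and preB cells, 183 in Erg KO pre-proB cells, and 177, 147 and 122 in Rescue pre-proB, proB and preB cells. The count was therefore highest in the 3 pre-proB libraries and lowest in the preB library of each series. As a share of its own list the WT windows held 0.189%, 0.144% and 0.131% in the same order of stages, the Erg KO windows held 0.178%, and the Rescue windows held 0.168%, 0.161% and 0.144%. When the 7 lists were cut to the length of the shortest, the order of stages was kept within WT, with 123, 113 and 100 peaks, and within Rescue, with 124, 119 and 108. That order did not hold for each gene. From WT pre-proB to proB cells, these counts rose at Meis1 (18 to 20), Hlf (7 to 13), Gata2 (4 to 6), Lyl1 (10 to 14) and Hhex (7 to 8). They fell at Mecom (18 to 9), Bcl11a (36 to 24) and Lmo2 (13 to 9), and Tal1 had 10 at both stages. In Rescue, Mecom (22 to 10) and Bcl11a (32 to 30) fell at that step and no other gene did.

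**Figure D1:**
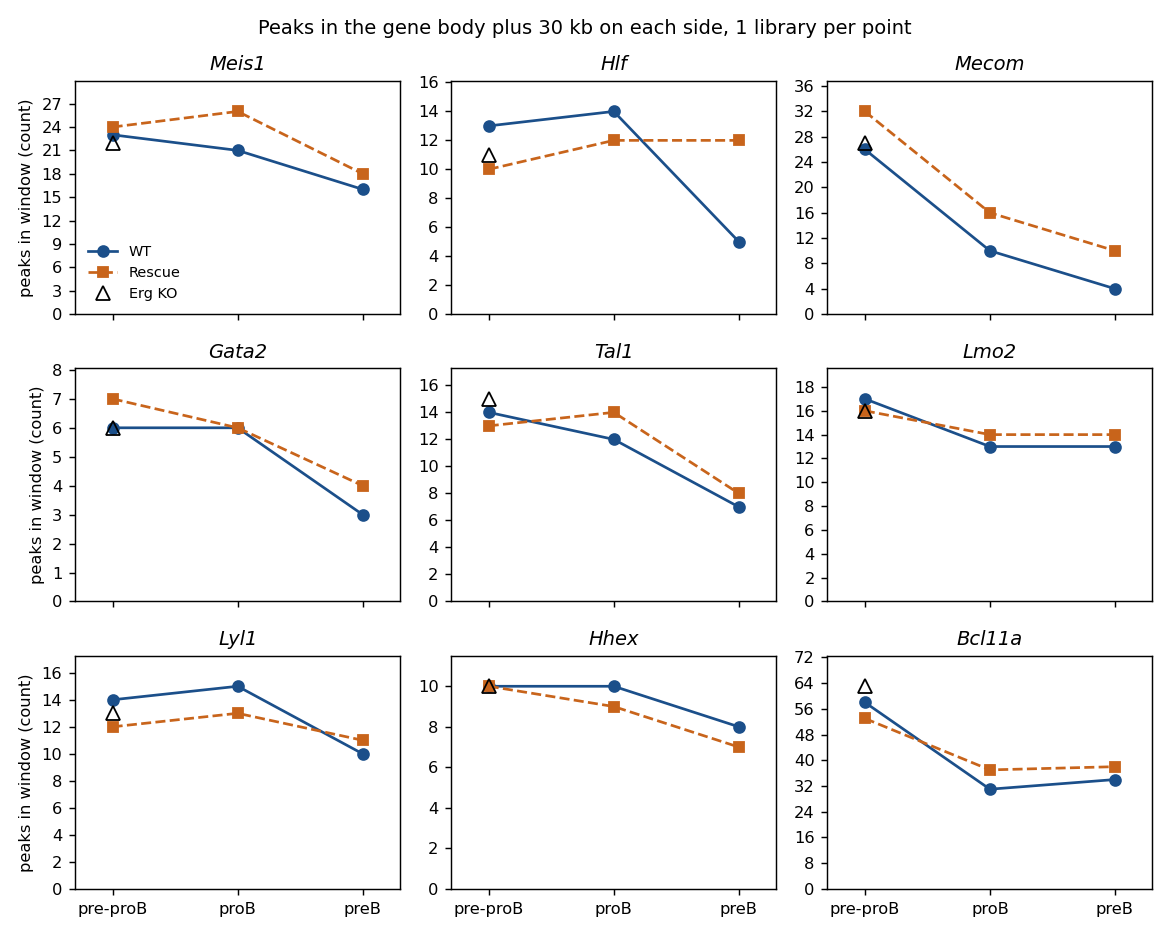
Number of peaks in the window of each gene (vertical axis, count) by stage (horizontal axis) for the WT, Rescue and Erg KO libraries, 1 library per point. Mecom has 26, 10 and 4 peaks in WT pre-proB, proB and preB cells, whereas Hhex has 10, 10 and 8.

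Bcl11a and Mecom together had 84, 41 and 38 peaks in the WT series and 85, 53 and 48 in Rescue, so their counts differed mainly between pre-proB and proB cells. Bcl11a, a zinc finger repressor with a gene body of 96.1 kb, had 58, 31 and 34 peaks in WT pre-proB, proB and preB cells, 63 in Erg KO and 53, 37 and 38 in Rescue. Mecom, a zinc finger factor whose gene spans 597 kb, had 26, 10 and 4 peaks in the WT series, 27 in Erg KO and 32, 16 and 10 in Rescue. The remaining 7 genes had 97, 91 and 62 peaks in the WT series and 92, 94 and 74 in Rescue, so their counts differed mainly between proB and preB cells.

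All 9 genes had a peak within 1000 bp of an annotated start of a protein-coding transcript in every library. Over all 21938 protein-coding genes the share with such a peak was between 61.4% and 65.5% per library. Promoter strength differed widely between the genes and also, within a gene, between the stages. The Bcl11a promoter ranked in the top 2.34%, 3.94% and 4.54% of the WT lists, the Hhex promoter in the top 6.0%, 11.3% and 8.68%, and the Meis1 promoter in the top 6.91%, 7.63% and 10.7%. The Lyl1 promoter ranked in the top 10.4%, 3.82% and 11.9%, that of Hlf in the top 14.6%, 13.2% and 20.0%, and that of Lmo2 in the top 15.5%, 11.5% and 12.5%. The promoters of Tal1 (top 39.5%, 32.0% and 52.4%) and of Gata2 (top 66.5%, 57.6% and 81.5%) were the weakest.

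Mecom uses several starts, and these did not behave alike. The long form, MDS1-EVI1, begins at chr3:30509733 on the minus strand, and the region beside it had a peak in all 7 libraries. It ranked in the top 21.4%, 15.3% and 20.7% in WT pre-proB, proB and preB cells, in the top 19.8% in Erg KO, and in the top 17.4%, 7.48% and 6.92% in Rescue. The starts of the short form at 30013156 and 30013505 shared a weaker peak, in the top 59.5% of the WT pre-proB list and 79.0% of the WT proB list, 56.5% in Erg KO, and 53.2% in Rescue pre-proB and 71.2% in Rescue proB cells. No preB library had a peak there. The start of Gata2 at chr6:88198334 likewise had weak peaks, between the top 79.6% and the top 94.1%, in 6 libraries and none in Rescue preB cells.

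Away from promoters, the 211 regions included 174 distal ones, of which 45 had a peak in all 7 libraries. Another 61, or 35.1%, had peaks in pre-proB libraries alone, against 25.2% of all 121694 distal regions of the series. Only 24, or 13.8%, had peaks in proB or preB libraries alone, against 25.6% of all distal regions. Mecom had 16 of its 25 distal regions in pre-proB libraries alone and none in the later libraries alone, and Bcl11a had 30 of 62 against 8. In contrast, Hlf, Gata2 and Lyl1 had no distal region limited to the pre-proB libraries, among 13, 3 and 6. At Meis1, Lmo2 and Tal1 the share was 24.0%, 22.2% and 15.4%, below the 25.2% of the series, and at Hhex it was 33.3%, or 3 of 9. The excess of the 9 genes together over the series thus came mainly from Mecom and Bcl11a. With a peak required in all 3 pre-proB libraries and in none of the later ones, 31 of the 174 remained, 17.8% against 12.8% of the series. Mecom had 9 of 25 in this set, Bcl11a 15 of 62, Lmo2 3 of 18, Meis1 3 of 25 and Hhex 1 of 9, and the other genes had none.

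**Figure D2:**
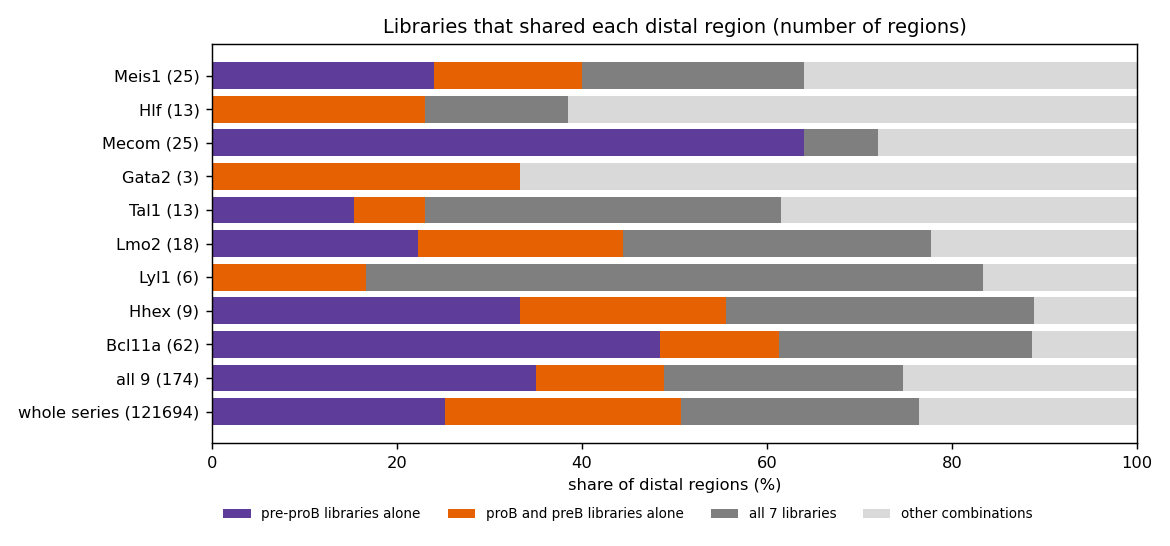
Share of the distal regions of each gene (horizontal axis, percent; number of regions in brackets) with peaks in the pre-proB libraries alone, in the proB and preB libraries alone, in all 7, or in other combinations. Pre-proB regions make up 64.0% for Mecom, 48.4% for Bcl11a and 35.1% for the 9 genes together, against 25.2% in the whole series.

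The step from pre-proB to proB cells asks which elements close and open as cells commit to the B lineage. In WT cells, 66 of the 181 window peaks of pre-proB cells, 36.5% with a Wilson 95% interval of 29.8% to 43.7%, had no overlapping peak in proB cells, against a background of 34.1% of all pre-proB peaks. The interval covers counting error only, and neighbouring peaks are not independent. The share for the 9 genes together was thus near the background, and it was made of unlike genes: 18 of 26 Mecom peaks and 30 of 58 Bcl11a peaks had no counterpart, against 6 of 23 at Meis1, 6 of 17 at Lmo2, 1 of 13 at Hlf and 0 of 14 at Lyl1. In the other direction, 24 of 132 proB peaks, 18.2% with an interval of 12.5% to 25.6%, had none in pre-proB cells, against 31.9% of all proB peaks. In lists of equal length these were 25.7% of window peaks and 33.7% of all peaks.

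In the Rescue series the same step gave 59 of 177 peaks, 33.3%, against a background of 33.1%. In the other direction it gave 19 of 147, 12.9% with an interval of 8.43% to 19.3%, against 21.8%. Both series therefore had fewer proB peaks of their own in these windows than in the whole list. If the Rescue stages are read from the cell source field, the window shares for this step become 17.2% and 45.8%. The backgrounds above do not apply to that reading, and its own are not given here.

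From proB to preB cells, 44 of 132 WT window peaks, 33.3% with an interval of 25.9% to 41.7%, had no counterpart in preB cells, against 26.7% of all proB peaks. Hlf gave 10 of 14 and Mecom 7 of 10. Only 9 of the 100 WT preB peaks, against a background of 10.7%, had none in proB cells. In the Rescue series 34 of 147, 23.1% against 19.1%, had no preB counterpart, and 12 of 122, 9.84% against 12.9%, had no proB counterpart. In lists of equal length the first of these Rescue shares was 14.3% against 15.2%, so its excess over the background was not kept, whereas the WT share was 30.1% against 18.6%. The peaks that differed were mostly weak. For the WT pre-proB to proB step, the median of the 66 was the top 76.5% of the list, whereas the median of the peaks that both stages had was the top 51.9%.

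Among the stem cell identity genes, Mecom had the widest difference in rank between WT pre-proB and preB cells, 86.5 percentage points, among the 66 regions of the 9 windows with a peak in all 7 libraries. The element at chr3:30412587-30415026 lies in intron 1 of the long form. It is 134.67 kb from the upstream end of the annotated gene at chr3:30548008, which lies upstream of the long-form start. It ranked in the top 0.524% in WT pre-proB cells, 0.620% in Erg KO and 0.398% in Rescue pre-proB cells. In WT proB and preB cells it ranked only in the top 47.5% and 87.0%, and in Rescue proB and preB cells in the top 12.2% and 22.4%. The fold over background at its summit was 160, 8.31 and 4.16 in the WT series, 155 in Erg KO, and 183, 39.4 and 26.0 in Rescue. It was thus high in every pre-proB library with or without Erg, and in both later stages the Rescue peak was stronger within its list than the WT peak.

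A pair of other Mecom elements were likewise open in all 3 pre-proB libraries and without a peak in WT preB cells. The one 455.87 kb from the upstream end of the gene was in the top 20.1% in WT pre-proB, 18.5% in Erg KO and 17.9% in Rescue pre-proB cells. It was in the top 45.6% in Rescue proB cells, and had no peak in WT proB cells or in either preB library. The one 532.54 kb from that end, close to the short form, was in the top 31.6%, 30.3% and 28.3% in the pre-proB libraries. It was in the top 44.6% and 45.6% in WT and Rescue proB cells and in the top 67.9% in Rescue preB cells, with no peak in WT preB cells.

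**Figure D3:**
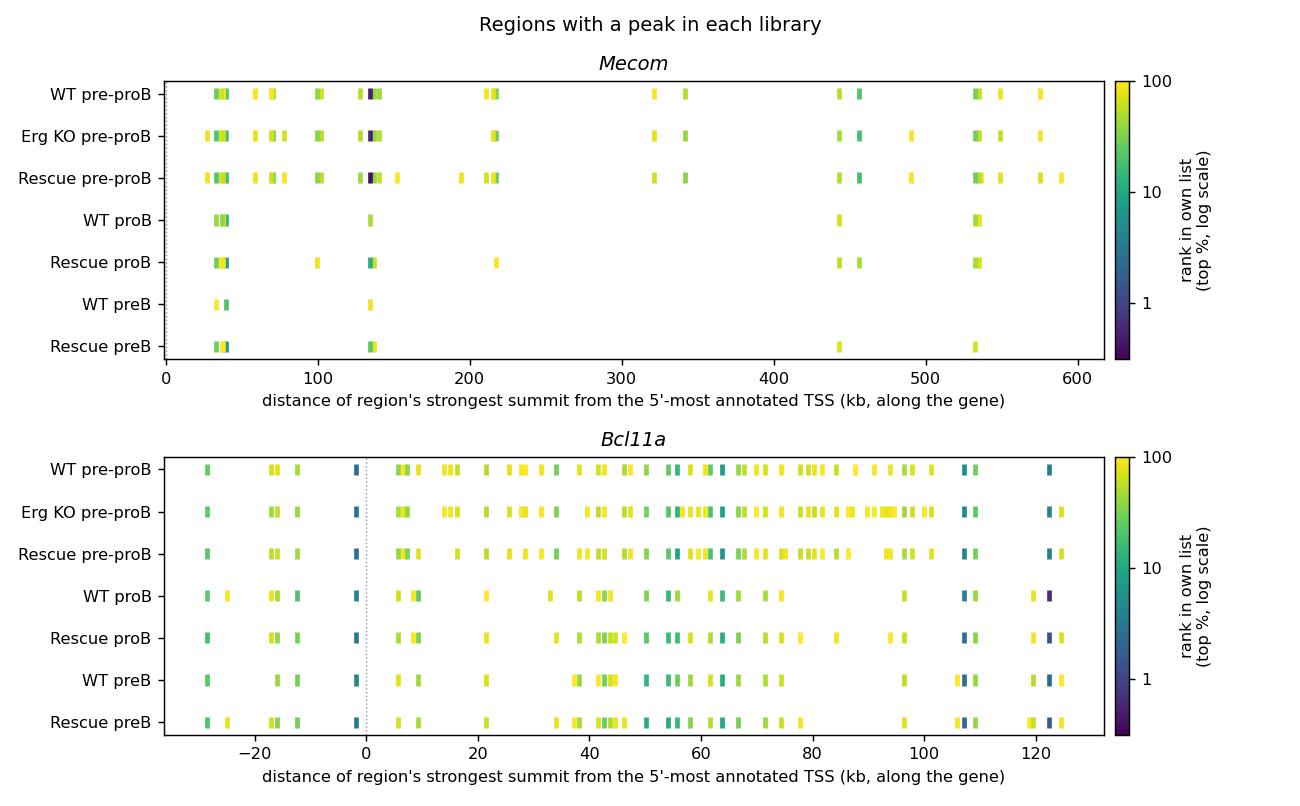
Regions of Mecom and Bcl11a with a peak in each library (rows), coloured by rank within the library's own list on a log scale. The horizontal axis is the distance along the gene (kb) from the upstream end of the annotated gene, which for Mecom lies upstream of the long-form start. Peaks of a library in the same merged region share a mark, so a row can show fewer marks than peaks. Mecom has 26, 27 and 32 peaks in the WT, Erg KO and Rescue pre-proB libraries and 4 in WT preB.

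Meis1, a homeodomain partner of Hox proteins, had 23, 21 and 16 peaks in the WT series, 22 in Erg KO, and 24, 26 and 18 in Rescue. Its intron 8 element at chr11:18924342-18925582 ranked in the top 2.87%, 6.03% and 22.4% in the WT series, 2.58% in Erg KO, and 2.49%, 6.58% and 13.1% in Rescue, a decline with stage in both series. The sequence above shows TGACAG, which Meis-type homeodomains can bind, 3 bases from AGATAAG, which GATA factors bind. The intron 7 element at chr11:18957495-18958496 went further in the same direction, from the top 10.8% in WT pre-proB cells to 59.3% in proB and 95.1% in preB cells, and from the top 9.51% to 39.2% and 59.6% in Rescue. The intron 6 element whose sequence is given was in the top 11.4%, 10.6% and 11.3% in WT, Erg KO and Rescue pre-proB cells and in the top 38% in Rescue proB cells, with no peak in the other 3 libraries. A second element in intron 8, at chr11:18906808-18907721, had the same distribution, in the top 17.2%, 15.0% and 15.9% of the pre-proB lists and 60.0% in Rescue proB cells. An element near the end of the gene was mostly found later. It lies in the last intron, at chr11:18885351-18886235, and was in the top 35.1% in WT proB cells and 32.3% and 47.7% in Rescue proB and preB cells. It had no peak in WT preB cells, and among pre-proB libraries it was found in Erg KO alone, at the top 76.0%.

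Hlf, a PAR bZIP factor of quiescent stem cells, had 13, 14 and 5 peaks in the WT series, 11 in Erg KO, and 10, 12 and 12 in Rescue. The WT preB library stood alone here, with fewer than any other. The upstream element at chr11:90419136-90420410 ranked in the top 25.6% in WT pre-proB, 18.8% in Erg KO and 20.1% in Rescue pre-proB cells, in the top 62.3% and 36.8% in WT and Rescue proB cells, in the top 51.1% in Rescue preB cells, and had no peak in WT preB cells. Its neighbour at chr11:90417523-90418436 had a peak in all 7, in the top 16.0%, 14.1% and 45.4% in WT, 13.7% in Erg KO, and 11.7%, 8.66% and 13.1% in Rescue. A pair of intron 2 elements had their highest rank in WT proB cells. The one at chr11:90364807-90365565 was in the top 33.9% there, in the top 70.3%, 54.2% and 52.9% in WT, Erg KO and Rescue pre-proB cells, in the top 89.7% in Rescue proB cells and absent from both preB lists. The one at chr11:90355295-90356883 was in the top 16.3% there, against 80.5% in WT pre-proB cells and 64.7% in WT preB cells.

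Gata2, the GATA factor that stem cells depend on, had the fewest peaks, with 6, 6 and 3 in the WT series, 6 in Erg KO, and 7, 6 and 4 in Rescue. The intron 4 region at chr6:88203043-88203465, at the known enhancer of stem cell emergence and 9.22 kb from the upstream start, was weak throughout. It was in the top 84.7% and 68.4% of the WT pre-proB and proB lists, 93.3% in Erg KO and 80.6% in Rescue pre-proB cells, and had no peak in Rescue proB cells or in either preB library. In its sequence the E-box CATCTG stands 8 bases before AGATAAG, the spacing used by complexes of Tal1 and GATA factors. This pair of letters with that spacing, looked for after the sequence was seen, occurs within 300 bp around the strongest summit in 6 of the 121694 distal regions of the series, 0.00493%, and in 1 of the 174 distal regions of the 9 windows. The downstream element at chr6:88228787-88229717 was stronger, in the top 31.3%, 32.9% and 29.5% in WT, Erg KO and Rescue pre-proB cells, 49.3% and 51.0% in WT and Rescue proB cells and 74.2% in Rescue preB cells, with no peak in WT preB cells.

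Tal1, the basic helix-loop-helix factor of blood specification, had 14, 12 and 7 peaks in the WT series, 15 in Erg KO, and 13, 14 and 8 in Rescue. Its leading stage difference was at chr4:115047569-115048759, -8.43 kb from the start, where the rank went from the top 9.32% in WT pre-proB cells to 40.0% and 71.3% in WT proB and preB cells. In Erg KO it was in the top 8.73%, and in Rescue it went from the top 7.37% to 31.3% and 60.3%, so the WT and Rescue series declined alike. The element at chr4:115035445-115036221, -20.59 kb from the start, was in the top 21.4%, 18.4% and 16.3% of the WT, Erg KO and Rescue pre-proB lists and 41.6% in Rescue proB cells, with no peak in the other 3 libraries. A region 39.75 kb downstream, in the vicinity of the erythroid enhancer, had a peak in all 7 libraries, between the top 18.7% and the top 44.4%, without an order by stage.

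Lmo2, the LIM protein that holds this complex together, had 17, 13 and 13 peaks in the WT series, 16 in Erg KO, and 16, 14 and 14 in Rescue. Some elements on its upstream side ranked higher in later stages, and some in its intron 1 had no peak there or ranked lower. The upstream element at chr2:103934165-103937171 was in the top 69.3% in WT pre-proB cells and in the top 8.42% and 22.9% in WT proB and preB cells. It had no peak in Erg KO or Rescue pre-proB cells, and was in the top 20.4% and 23% in Rescue proB and preB cells. The next one, at chr2:103931948-103932865, had no peak in any pre-proB library and was in the top 56.1% and 46.4% in WT proB and preB cells and in the top 45.6% and 34.5% in Rescue. The element at chr2:103940782-103941870 was in the top 12.8%, 5.07% and 41.8% in the WT series, 16.2% in Erg KO, and 16.6%, 23.3% and 40.5% in Rescue, so that its highest rank was in WT proB cells. In intron 1, the element at chr2:103959892-103960474 was in the top 23.6%, 20.7% and 22.6% in WT, Erg KO and Rescue pre-proB cells and had no peak in any of the 4 later libraries. Another intron 1 element, at chr2:103964988-103965914, went from the top 26.5% to 84.6% and 71.0% in WT, was in the top 21.1% in Erg KO, and went from the top 16.9% to 43.9% and 48.9% in Rescue.

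Lyl1, the close relative of Tal1, had 14, 15 and 10 peaks in the WT series, 13 in Erg KO, and 12, 13 and 11 in Rescue, and 4 of its 6 distal regions had a peak in all 7 libraries. The distal regions of Lyl1 that some library lacked were weak. The one at chr8:84690747-84691139 was found in WT proB cells alone, at the top 66.8%, and the one at chr8:84725878-84726236 was in the top 90.8% and 72.6% in WT pre-proB and proB cells, 85.0% in Erg KO, and 96.2% and 88.2% in Rescue pre-proB and preB cells. Just downstream of the gene, the region at chr8:84706460-84708370 was in the top 65.2%, 63.8% and 64.0% in WT, Erg KO and Rescue pre-proB cells and then in the top 21.6% and 17.1% in WT and 18.4% and 16.9% in Rescue proB and preB cells. This rise in rank with stage was of nearly the same size in both series.

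Hhex, a homeodomain repressor, had 10, 10 and 8 peaks in the WT series, 10 in Erg KO, and 10, 9 and 7 in Rescue. Its downstream element at chr19:37442856-37443382 was in the top 39.4%, 31.6% and 28.1% in WT, Erg KO and Rescue pre-proB cells and 83.3% in Rescue proB cells, with no peak in the other 3 libraries. An element at chr19:37469167-37469552 was found only in WT proB and preB cells, at the top 64.4% and 75.4%.

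Bcl11a had elements that were strong at every stage, elements limited to pre-proB cells and elements that ranked higher later. Its downstream element at chr11:24184428-24186304, 107.13 kb from the start, ranked in the top 5.16%, 4.05% and 2.5% in the WT series, 4.68% in Erg KO, and 4.30%, 2.65% and 2.27% in Rescue. The intron 1 element at chr11:24085066-24085575 was in the top 37.0%, 38.8% and 32.4% in WT, Erg KO and Rescue pre-proB cells and absent from all 4 later libraries, in WT and Rescue alike. In intron 2, which holds the erythroid enhancer of the gene, the element at chr11:24111630-24112701 was in the top 29.0%, 32.1% and 29.4% of the same 3 pre-proB lists and in the top 78.5% and 80.0% in Rescue proB and preB cells, with no peak in WT proB or preB cells. Also in intron 2, the element at chr11:24087048-24087662 was in the top 82.9% in WT pre-proB and 75.2% in Rescue pre-proB cells, had no peak in Erg KO, and was in the top 24.5% and 44.1% in WT and 31.5% and 46.2% in Rescue proB and preB cells. The element at chr11:24120249-24120979 rose in rank in the same way, from the top 88.5% to 36.3% and 29.2% in WT and from the top 67.0% to 31.9% and 26.1% in Rescue.

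**Figure D4:**
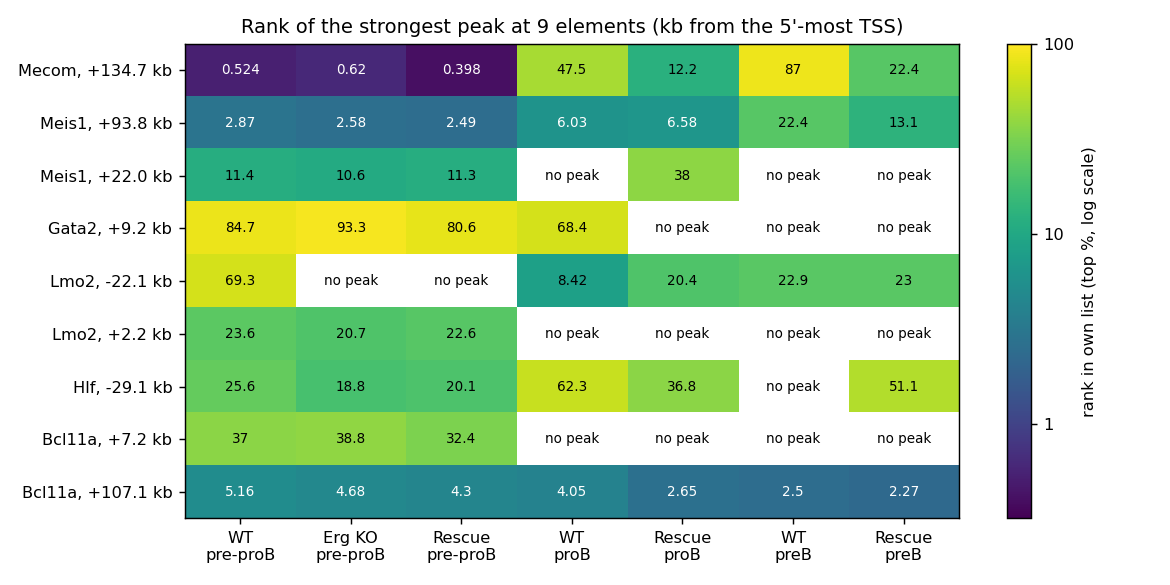
Rank of the strongest peak within each library's own list (colour on a log scale, and the printed top percentage) for the 9 elements whose sequences are given (rows) in the 7 libraries (columns). The Mecom element is in the top 0.524%, 0.62% and 0.398% of the pre-proB lists and in the top 87.0% of the WT preB list.

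The comparison of pre-proB cells with and without Erg asks which of these elements depend on it at the 1 stage for which there is an Erg KO library. In these windows, 13 of the 181 WT peaks, 7.18% with an interval of 4.25% to 11.9%, had no Erg KO counterpart, against 6.88% of all WT pre-proB peaks. In the other direction 20 of 183 Erg KO peaks, 10.9%, had no WT counterpart, against 13.6% of all. Against Rescue pre-proB cells, 17 of the 181 WT peaks, 9.39% with an interval of 5.95% to 14.5%, had no counterpart, against 5.88%. Conversely, 24 of 177 Rescue peaks, 13.6%, had no WT counterpart, against 15.6%. Between the Erg-deficient libraries, 18 of 183 Erg KO peaks, 9.84%, had no Rescue counterpart, against 6.57%, and 16 of 177 Rescue peaks, 9.04%, had no Erg KO counterpart, against 9.81%. In lists of equal length the WT peaks without a Rescue counterpart were 5.69% against 7.81%, the Erg KO peaks without one 5.79% against 6.47%, and the Rescue peaks without an Erg KO counterpart 8.06% against 6.85%, so each of these turned from one side of its background to the other. These comparisons share libraries and are not independent of each other.

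Of the 174 distal regions, 3 had a peak in WT pre-proB cells and in neither Erg-deficient pre-proB library, or 1.72% against 2.57% of all distal regions, and 10 had a peak in both of those and not in WT, or 5.75% against 6.13%. The peaks behind these differences were weak. The 13 WT peaks without an Erg KO counterpart had a median rank of the top 89.8%, against 57% for those with one. The Mecom intron 1, Meis1 intron 8, Tal1 upstream and Lmo2 intron 1 elements had close ranks in the 3 pre-proB libraries, as given above. These elements were named with their ranks known and all have a peak in each pre-proB library, so their likeness was set in part by that choice. The Bcl11a intron 2 element at chr11:24087048-24087662 had no peak in Erg KO, and weak ones in WT (top 82.9%) and Rescue (top 75.2%) pre-proB cells. The Lmo2 upstream element, in the top 69.3% in WT pre-proB cells and without a peak in Erg KO or Rescue pre-proB cells, was 1 of the 3 distal regions with a WT peak and neither Erg-deficient one. In WT pre-proB cells 7 of 8 B-lineage genes had a promoter peak, against 4 in Erg KO and 5 in Rescue pre-proB cells, and of 8 T-lineage genes 4, 7 and 7 had one. The WT pre-proB library therefore differed at these promoters from both Erg-deficient libraries. The whole windows differed less, with 108, 102 and 105 peaks for the B-lineage genes and 79, 84 and 90 for the T-lineage genes. WT proB cells had a promoter peak at 5 of the 8 T-lineage genes, so such a peak is not limited to T cells. The part of these differences in the values above was not tested.

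**Figure D5:**
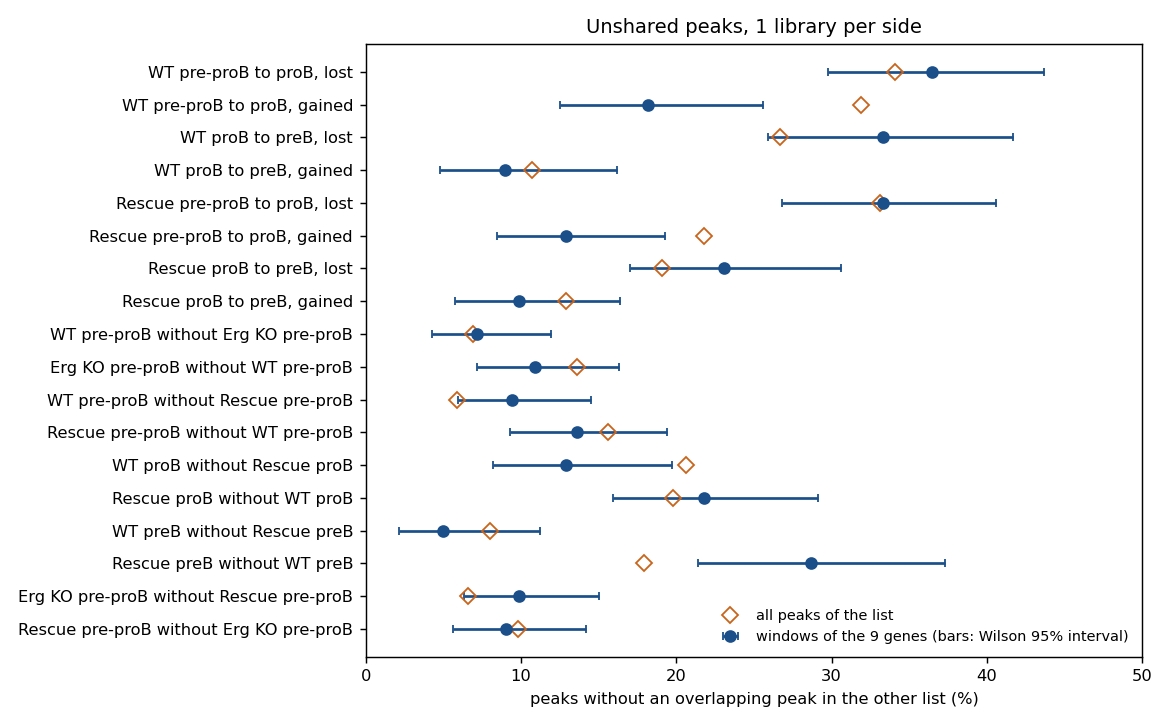
Share of peaks with no overlapping peak in the other library (horizontal axis, percent) for each of 18 comparisons, in the 9 windows (circles, with Wilson 95% intervals for counting error) and over all peaks of the list (diamonds). The share of Rescue preB peaks without a WT preB counterpart, 28.7% in the windows, exceeds the 17.9% of the whole list.

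Cells of the later stages that lacked Erg and carried the knock-in heavy chain were compared with WT cells of the same stage. In proB cells 17 of 132 WT peaks, 12.9% with an interval of 8.20% to 19.7%, had no Rescue counterpart, against 20.6% of all. In the other direction 32 of 147 Rescue peaks, 21.8%, had no WT counterpart, against 19.8%, and in lists of equal length 18.5% against 19.2%. In preB cells 5 of 100 WT peaks had no Rescue counterpart, against 8.02% of all. Of the Rescue preB peaks, 35 of 122, 28.7% with an interval of 21.4% to 37.3%, had no WT counterpart, against 17.9% of all. In lists of equal length the latter share was 22.2% in the windows and 12.8% over all peaks. With the cell source field as the stage it was 38.8% in the windows, and the share over all peaks for that reading is not given here.

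Mecom and Hlf supplied 14 of these 35 Rescue preB peaks, with 7 of 10 and 7 of 12. The 35 were mostly weak, with a median rank of the top 80.0%, against 35.8% for the Rescue preB window peaks with a WT counterpart. With equal-length lists Hlf still had 5 WT against 10 Rescue preB peaks, and Mecom 4 against 8. Of the 26 distal regions with a peak in Rescue preB and not in WT preB cells, 17 had one in WT proB cells, 65.4% against 43.6% of all 12423 such distal regions of the series. This held for 5 of 5 distal regions at Hlf and 2 of 3 at Mecom. The WT pre-proB peaks without a WT proB counterpart were found in the other libraries at shares near those of the whole series. Of these 66, 62 had a peak in Erg KO cells, 93.9% against 92.3% of all such peaks, and 58 in Rescue pre-proB cells, 87.9% against 93.9%. In Rescue proB cells 23 had one, 34.8% against 33.7%. In Rescue preB cells 9 had one, 13.6% against 16.0%.

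Other genes of the same circuits were read in the same windows. Of 14 such genes, 12 had a promoter peak in every library, and Gata1, the erythroid GATA factor, had none in any. Prdm16, the relative of Mecom, had 18, 8 and 3 peaks in WT, 21 in Erg KO, and 20, 10 and 3 in Rescue. Kit, the stem cell factor receptor, had 9, 8 and 2 in WT, 8 in Erg KO, and 9, 3 and 2 in Rescue. Fli1 had 28, 32 and 27 and Runx1 30, 28 and 24 peaks in the WT series, and Erg itself had 37, 52 and 41, with 35 in Erg KO. These counts do not show the deletion itself.

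Promoters of marker genes of other cells were read in the same way. Of 8 erythroid genes 3 or 4 had a promoter peak in each library, and Gata1, Alas2, Hba-a1 and Ermap had none in any. Of 8 megakaryocyte genes 1 to 3 had one, and Vwf, Treml1 and Gp1ba had none in any. Myeloid genes had a promoter peak for 4, 4 and 5 of 8 in WT, Erg KO and Rescue pre-proB cells and for 3 in each later library. The difference lay at Csf3r and, in Rescue pre-proB cells, also at Mpo. Elane, S100a8 and Ly6g had none in any. Genes of natural killer and innate lymphoid cells had one for 6 of 8 in each pre-proB library and for 3 to 6 in the later ones. All 8 plasmacytoid dendritic cell genes had one in every library, and their windows held 222, 251 and 225 peaks in WT, Erg KO and Rescue pre-proB cells, against 135 to 167 in the later ones. Of 8 genes used as stem cell surface markers, 5 had a promoter peak in each pre-proB library and 3 or 4 in the later ones, and Tek had none in any. All 8 B-lineage genes had one in the 4 later libraries. The sorts were gated to leave out cells with the natural killer marker NK1.1 or the dendritic cell marker CD11c, per the study's methods. The part of other cells in the pre-proB peaks was not tested.

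Among the 174 distal regions, the 7 patterns, searched within 300 bp around the strongest summit, occurred at shares near those over all 121694 distal regions. The ETS pattern CAGGAAG was in 16.1% (interval 11.4% to 22.3%) against 19.9%, the GATA pattern AGATAAG in 4.60% against 3.60%, and the E-box CAGCTG in 20.7% against 26.0%. The RUNX pattern TGTGGTT was in 13.2% against 14.7%, the Meis pattern TGACAG in 24.7% against 24.1%, the EBF1 pattern CCCNNGGGA in 4.60% against 7.29%, and the CTCF core AGGGGGC in 8.05% against 6.15%. In the 61 regions limited to pre-proB libraries, CAGGAAG was in 16.4% against 16.0% of all such regions, and in the 24 limited to later libraries CCCNNGGGA was in 12.5% against 14.5%. Some subset shares lay further off. In the same 61, TGTGGTT was in 9.84% (interval 4.59% to 19.8%) against 17.3% and CAGCTG in 18.0% (10.4% to 29.5%) against 25.9%. AGGGGGC was higher there, in 4.92% against 3.63%. In the 45 regions in all 7 libraries, CAGGAAG was in 11.1% (4.84% to 23.5%) against 21.8%, and AGGGGGC in 15.6% against 9.37%. CAGCTG is its own reverse complement, and matches of different patterns may overlap.

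The covered length of the windows, as a share of each list's total, varied by 6.0 times between libraries for Mecom, 3.71 times for Hlf and 2.22 times for Tal1, and by less than 2 times for the other 6 genes. Over the 7 libraries, the genes on other chromosomes whose covered share was most alike were Ppm1h (Pearson r = 0.999) and Stard13 (0.998) for Mecom, Pibf1 (0.976) and Cadps2 (0.970) for Hlf, and Mak16 and Arhgef37 (both 0.991) for Tal1. Between 14438 and 14959 genes were searched for each, on 7 points, so these values describe the lists only.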

How the data were processed

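The 7 narrowPeak lists were deposited by the authors, 1 per sorted population, each made by aligning reads with Bowtie2 to mm10 and calling peaks with MACS2, per the labels. The submitters' processing notes also name CASAVA 1.8.2 and Picard, and no source used here states options or other versions. The protocol label describes Tn5 tagmentation, whereas the study's methods describe sonicated nuclei. Whether reads were shifted for Tn5, which would move edges and summits by a few bases, is not given. In the deposited lists the score is about 10 times the −log10 of the q-value and the fold is the summit pileup over background. The other columns hold the −log10 of the p-value and q-value, and the summit is an offset from the start. All these depend on depth, which is unknown, so peaks were compared by rank of −log10 q within their own list.

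Peaks were assigned to gene bodies with 30 kb flanks (GENCODE M21), and a peak counted as shared when it overlapped a peak of the other list by at least 1 bp. Regions are overlapping peaks merged across the 7 lists. Regions within 1000 bp of a start were called promoters and all others distal. For each gene the best-ranked promoter region and the 2 best-ranked distal regions that some library lacked were named. A few items that this rule or the lists hold are not reported here. The 9 genes, the lists and this rule were chosen with earlier results of these data known. Sequences were read from the RefSeq copy of GRCm38. The overlap step was checked on simulated lists, in which removed peaks were recovered. Intervals are Wilson 95% intervals. Python 3.11.15, pandas 2.3.3, scipy 1.17.1 and pysam 0.24.0 were used. Alternatives were lists of equal length and of 38232 peaks, a reciprocal overlap of 50%, no flank or 100 kb, promoters of 2500 bp, leaving out promoters of other genes, and Rescue stages taken from the cell source field.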

Additional observations from a re-analysis of the deposited data

Results flagged for a closer look

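For 2 genes the peak count moved in opposite directions in WT and Rescue between pre-proB and proB cells, and for 5 genes the sign of the Rescue count minus the WT count varied by stage. Each value is a difference between individual libraries, and none of these differences was tested. From pre-proB to proB cells Meis1 had 2 more peaks in Rescue, against a change of -2 in WT, and Tal1 had 1 more in Rescue, against -2 in WT. In lists of equal length these opposite signs were gone: Meis1 had 18 and then 20 peaks in WT and 18 and then 21 in Rescue, and Tal1 had 10 and 10 in WT and 11 and 12 in Rescue. The Rescue count minus the WT count took different signs at different stages for the 5. For Hlf it was -3 in pre-proB, -2 in proB and 7 in preB cells. For Tal1 it was -1, 2 and 1, for Lmo2 -1, 1 and 1, and for Lyl1 -2, -2 and 1. For Bcl11a it was -5, 6 and 4. For Hlf, the equal-length lists held 7 WT and 7 Rescue peaks in pre-proB cells, 13 and 10 in proB cells, and 5 and 10 in preB cells.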

How the results depend on the processing

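No paired analysis was possible because each group has 1 library and the labels carry no replicate numbers. Leaving out a replicate was not possible for the same reason. A promoter window of 2500 bp and leaving out promoters of other genes moved none of the main counts and shares beyond 1.5 times or their intervals. With the lists cut to equal length the Erg KO count was 121, and with lists of 38232 peaks the counts were 61, 54 and 49 in WT, 57 in Erg KO and 58, 61 and 57 in Rescue, so that Rescue proB then held the most of its series. Gene bodies alone held 116, 72 and 53 WT peaks and 86 and 65 Rescue proB and preB peaks. Flanks of 100 kb gave 218 and 180 in WT proB and preB cells and 270, 232 and 210 in Rescue. The cause of the changes below was not tested, beyond the stricter overlap counting fewer peaks as shared.

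The share of unshared window peaks rose in all 18 comparisons under a reciprocal overlap of 50%. For the WT steps it was 55.2% and 39.4% (pre-proB to proB, each direction) and 53.0% and 38% (proB to preB), and for the Rescue steps 45.2%, 34.0%, 37.4% and 24.6%. Between WT and Erg KO it was 18.8% and 19.7%, between WT and Rescue 23.8% and 22.0% in pre-proB, 30.3% and 36.7% in proB and 26.0% and 39.3% in preB cells, and between Erg KO and Rescue 17.5% and 14.7%. With equal lists the WT proB peaks without a pre-proB counterpart were 25.7% (33.7% over all peaks), the Rescue peaks without a later counterpart 26.6% and 14.3% for the first and second step (27.2% and 15.2% over all peaks), the WT and Rescue pre-proB peaks without each other 5.69% and 8.06% (7.81% and 8.63%), and Erg KO peaks without Rescue 5.79% (6.47%). With lists of 38232 peaks the first WT step gave 44.3% and 33.3%, the WT preB peaks without proB 16.3%, the Rescue proB peaks without pre-proB 27.9%, Erg KO without WT 3.51%, Rescue pre-proB without WT 5.17%, Rescue preB without WT 21.1%, Erg KO without Rescue 1.75% and Rescue without Erg KO 5.17%. Gene bodies alone gave 48.3% in WT and 41.8% in Rescue for pre-proB peaks without a proB counterpart. With Rescue stages from the cell source field, the Rescue shares were 17.2% and 45.8% for the first step and 33.3% for proB peaks without preB. WT against Rescue gave 38.7% (WT pre-proB), 22.0% and 44.1% (proB, WT and Rescue) and 38.8% (Rescue preB), and Erg KO against Rescue pre-proB gave 47.5% and 19.7%. Apart from the 33.3%, whose share over all peaks was 33.1%, the backgrounds for this reading of the stages are not given here.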
